A study of Mus musculus with 6 samples.

Results

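The neurexins, neuroligins and LRRTMs (leucine-rich repeat transmembrane proteins) are cell-surface proteins that meet across the synaptic cleft. The 9 genes described here were taken by name from the table: the neurexins Nrxn2 and Nrxn3, the neuroligins Nlgn1, Nlgn2 and Nlgn3, and the LRRTMs Lrrtm1, Lrrtm2, Lrrtm3 and Lrrtm4. All 9 were among the 55367 gene names of the table, of which 31650 had a count, and all 9 were among the 16976 genes with enough counts to be tested. RNA-seq of polyadenylated RNA was carried out on cerebral cortical neurons of C57BL/6J mice, dissected from pups of postnatal day 1 (P1) and cultured for 2 days. The 3 WT and the 3 Fmr1-KO libraries shared strain, age and medium and differed by genotype, the Fmr1-KO animals lacking FMRP, the RNA-binding protein absent in fragile X syndrome. The question asked was how loss of FMRP bears on nonsense-mediated mRNA decay (NMD), which degrades selected mRNAs as they are translated.

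Neurexins are presynaptic receptors, and each neurexin gene makes long alpha and short beta forms from separate promoters. Neuroligins are their postsynaptic ligands: neuroligin-1 is found mainly at excitatory synapses, neuroligin-2 mainly at inhibitory synapses, and neuroligin-3 at both. LRRTMs are postsynaptic proteins of excitatory synapses that bind neurexins, and LRRTM3 and LRRTM4 also bind heparan sulphate proteoglycans. In early postnatal cortex, when most synapses are still to form, these proteins are known for starting and specifying synaptic contacts.

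Total counts ran from 30348556 to 35126207 per library, so depth was similar in all 6. Fmr1 was examined first, as a check of the labels. It had 4113, 3710 and 3656 counts in WT replicates 1, 2 and 3 and 1761, 1879 and 1972 counts in Fmr1-KO replicates 1, 2 and 3 (log2 fold-change -0.98, SE 0.04, edgeR adjusted P = 2.25e-13). All 3 Fmr1-KO libraries were therefore below all 3 WT libraries, although Fmr1 reads remained in the knockout. The labels call the cells cortical neurons. All 14 pan-neuronal markers examined were measured in both genotypes, which shows neuronal RNA but not that every cell was a neuron. Astrocyte RNA was also present although the cells had been depleted of astrocytes with an antibody to ACSA2, and Gfap stood at 2649 ± 67.0 CPM in WT (CPM, read counts scaled by TMM to a common library size; mean ± SD, n = 3 per genotype here and below). No 2 libraries of the same genotype agreed within counting noise, so n counts libraries. The study describes the triplicates as independently derived, but the labels tie no library to a culture, litter or animal. P values therefore measure only the spread between these libraries, part of which may be technical.

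The members occupy very different stretches of the mouse genome (GRCm38, GENCODE M21), and all are protein-coding. Nrxn2 lies at chr19:6418731-6544169 on the plus strand and Nrxn3 at chr12:88722876-90334935 on the plus strand, where it spans 1612.1 kb. Nlgn1 lies at chr3:25426215-26332460 on the minus strand and spans 906.2 kb, whereas Nlgn2, at chr11:69823122-69837784 on the minus strand, spans 14.7 kb. Nlgn3 is X-linked, at chrX:101299168-101325963 on the plus strand, and spans 26.8 kb. Lrrtm1 lies at chr6:77242689-77257791 and Lrrtm4 at chr6:80018877-80810143, both on the plus strand, and Lrrtm3 at chr10:63928472-64090277 on the minus strand. The longest annotated transcript had 23 exons for Nrxn2, 20 for Nrxn3, 8 for each neuroligin and 2 or 3 for each LRRTM. Lrrtm1, Lrrtm2 and Lrrtm3 each sit inside an alpha-catenin gene, Ctnna2, Ctnna1 and Ctnna3 in that order, on the opposite strand.

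The region upstream of a RefSeq start is shown for 4 members. Nlgn2 was chosen because it had the highest level per length, and Lrrtm1, Lrrtm3 and Lrrtm4 as the LRRTMs with a RefSeq promoter. Lrrtm2 fell as well but had no RefSeq promoter to show. The RefSeq and GENCODE starts differ for Lrrtm1 and Lrrtm3, and the end of the Lrrtm3 sequence lies inside the GENCODE span of the gene. Each sequence is the 250 bases before a RefSeq start (GRCm38.p6), 5′ to 3′ on the gene's own strand, with every CG in capitals. These were chr11:69837785-69838034 on the minus strand for Nlgn2, chr6:77242227-77242476 on the plus strand for Lrrtm1, chr10:64090256-64090505 on the minus strand for Lrrtm3 and chr6:80018627-80018876 on the plus strand for Lrrtm4.
Nlgn2: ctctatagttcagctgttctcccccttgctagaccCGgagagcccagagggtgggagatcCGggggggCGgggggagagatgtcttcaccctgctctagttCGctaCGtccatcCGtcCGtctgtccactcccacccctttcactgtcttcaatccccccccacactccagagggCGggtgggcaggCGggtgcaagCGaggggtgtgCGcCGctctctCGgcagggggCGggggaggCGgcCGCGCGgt
Lrrtm1: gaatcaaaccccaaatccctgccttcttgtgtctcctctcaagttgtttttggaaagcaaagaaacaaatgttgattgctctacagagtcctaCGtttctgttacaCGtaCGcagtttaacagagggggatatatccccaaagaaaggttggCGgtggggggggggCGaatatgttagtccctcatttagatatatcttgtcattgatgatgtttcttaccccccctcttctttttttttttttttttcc
Lrrtm3: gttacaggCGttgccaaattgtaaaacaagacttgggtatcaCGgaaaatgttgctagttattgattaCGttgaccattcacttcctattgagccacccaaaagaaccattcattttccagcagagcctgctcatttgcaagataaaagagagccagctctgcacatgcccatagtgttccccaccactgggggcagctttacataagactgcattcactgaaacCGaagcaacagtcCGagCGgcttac
Lrrtm4: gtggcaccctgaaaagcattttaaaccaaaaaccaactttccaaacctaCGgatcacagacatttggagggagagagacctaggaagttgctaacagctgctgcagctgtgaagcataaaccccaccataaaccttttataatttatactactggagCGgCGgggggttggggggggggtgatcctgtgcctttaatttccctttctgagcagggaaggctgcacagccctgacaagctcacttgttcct

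The motif searched was CG, which reads the same on both strands. Nlgn2 held 18 CG sites, and 21.7% of the 32851 RefSeq promoter windows of this length held as many or more. Lrrtm1 held 5 (55.6% of windows held as many), Lrrtm3 held 6 (50.4%) and Lrrtm4 held 3 (71.0%), against a median of 6 sites over all windows. At least 1 CG was found in 92.1% of all windows. A second Lrrtm4 start in the same RefSeq table, further downstream, had 8 sites. These counts describe letters in a window and were not related to the expression values.

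Relative to WT, 8 of the 9 members were lower in Fmr1-KO neurons, 0 were higher, and Nlgn1 did not pass the test (edgeR quasi-likelihood test, adjusted P under 0.05). Over all tested genes, 21.9% were called lower and 20.7% higher, 42.6% in all. At an unadjusted P under 0.05 the number higher was again 0, and DESeq2 also called 8 members lower and 0 higher, against 18.2% of its tested genes called lower. The median log2 fold-change was -0.31 over the 9 members, with a range from -0.81 to 0.03, and 0.01 over all tested genes. By family the medians were -0.24 for the 2 neurexins, -0.27 for the 3 neuroligins and -0.63 for the 4 LRRTMs. In 8 of the 9 members all Fmr1-KO libraries were below all WT libraries, an arrangement found in 26.3% of tested genes, the reverse being found in 25.4%. These are bulk cultures, in which fewer cells of a type and less RNA per cell cannot be told apart.

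**Figure D1:**
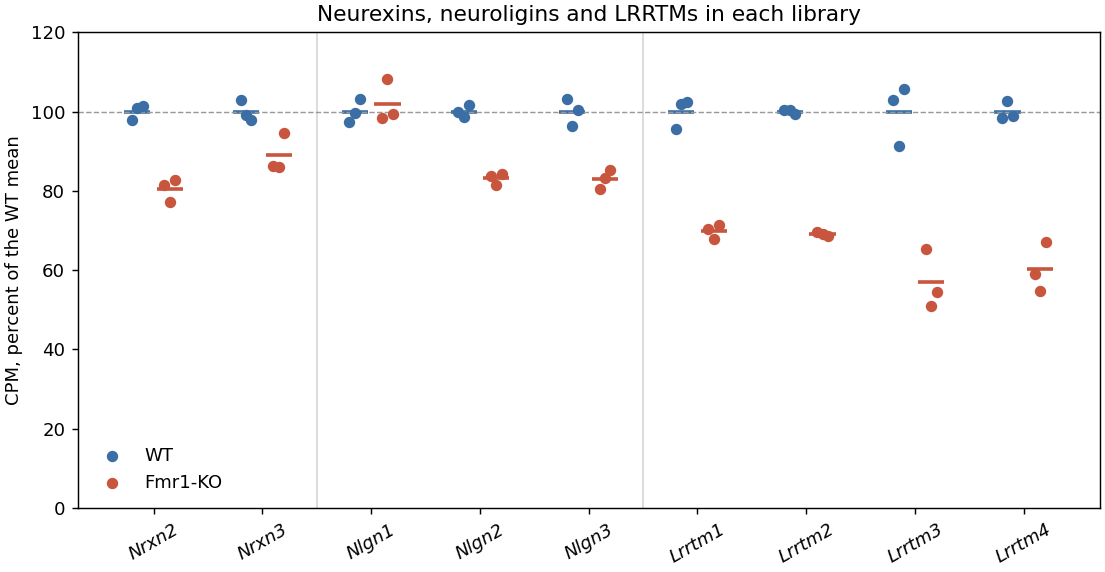
TMM-scaled CPM of each member in each library (y axis, percent of that member's WT mean) for the 9 members (x axis), with WT in blue, Fmr1-KO in red, 1 point per library and a bar at each mean (n = 3). The Fmr1-KO points lie below all WT points for 8 members, down to a mean of 56.9% of WT for Lrrtm3, and overlap the WT points for Nlgn1.

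Among the presynaptic receptors, Nrxn2 was the more abundant. It stood at 347, 358 and 360.1 CPM in WT replicates 1, 2 and 3 and at 289, 274 and 293 CPM in Fmr1-KO replicates 1, 2 and 3. Every Fmr1-KO library was thus below every WT library, and the mean went from 355 ± 6.76 to 286 ± 9.98 CPM. Nrxn2 fell by 0.31 on the log2 scale (SE 0.03, adjusted P = 4.98e-08 by edgeR). Of the 9 members, Nrxn2 alone is on the study's list of 1027 NMD targets, a list that was not drawn from these libraries. It was defined in N2A neuroblastoma cells, and the study cautions that targets present only in the cortical cultures would be missed. Absence from the list therefore does not show that a member is not a target.

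Nrxn3 stood at 116, 112 and 110.1 CPM in WT and at 96.9, 96.9 and 106 CPM in Fmr1-KO libraries. The genotypes did not overlap, but the highest Fmr1-KO value, in replicate 3, came close to the lowest WT value. The mean went from 112 ± 2.89 to 100.1 ± 5.54 CPM, a log2 fold-change of -0.17 (SE 0.04, edgeR adjusted P = 0.00141). This was the smallest decrease among the 8 members that fell, and 22.6% of all tested genes had a lower log2 fold-change. Leaving out single libraries moved the log2 fold-change of Nrxn3 between -0.22 (without Fmr1-KO replicate 3) and -0.14 (without Fmr1-KO replicate 2), with the call kept each time.

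The within-library ratio of Nrxn2 to Nrxn3, which does not depend on library scaling, ran from 1.59 to 1.71 in WT and from 1.46 to 1.58 in Fmr1-KO libraries on the log2 scale. The ranges did not overlap, and the mean ratio was lower by 0.15 in Fmr1-KO neurons, a difference of -0.15 (exact permutation test, 2-sided, P = 0.1, 0.2 after Benjamini-Hochberg adjustment over 10 within-family pairs). With 3 libraries against 3, P = 0.1 is the smallest value this exact test can give, so no ratio could pass the threshold.

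Of the neuroligins, Nlgn2 and Nlgn3 fell and Nlgn1 did not pass the test. Nlgn2, the neuroligin of inhibitory synapses, stood at 300.2, 296 and 305 CPM in WT and at 252, 245 and 253 CPM in Fmr1-KO libraries. The spread within each genotype was far smaller than the gap between them. The mean of Nlgn2 went from 300.6 ± 4.64 to 249.9 ± 4.41 CPM, a log2 fold-change of -0.27 (SE 0.03, edgeR adjusted P = 1.90e-07).

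Nlgn3, the neuroligin of both synapse types, stood at 93.2, 87.2 and 90.8 CPM in WT and at 72.6, 75.2 and 77.1 CPM in Fmr1-KO libraries. Again no Fmr1-KO library reached the lowest WT library. The mean of Nlgn3 went from 90.4 ± 3.02 to 74.96 ± 2.25 CPM, a log2 fold-change of -0.27 (SE 0.04, edgeR adjusted P = 4.89e-06). Relative to its WT mean, Nlgn3 was at 82.9% and Nlgn2 at 83.1% in Fmr1-KO neurons.

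Nlgn1, the neuroligin of excitatory synapses, stood at 49.4, 50.5 and 52.4 CPM in WT and at 49.97, 54.9 and 50.4 CPM in Fmr1-KO libraries. The libraries of the 2 genotypes were interleaved, and Fmr1-KO replicate 2 was the highest of all 6. The mean was 50.8 ± 1.53 CPM in WT and 51.8 ± 2.73 CPM in Fmr1-KO neurons, a log2 fold-change of 0.03 (SE 0.04, edgeR adjusted P = 0.657). Without Fmr1-KO replicate 2 the estimate was -0.02 (edgeR adjusted P = 0.805), so no direction can be given for Nlgn1.

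The log2 ratio of Nlgn1 to Nlgn2 ran from -2.60 to -2.54 in WT and from -2.33 to -2.16 in Fmr1-KO libraries, a difference of 0.29 with no overlap (exact permutation P = 0.1, adjusted 0.2). The ratio of Nlgn1 to Nlgn3 moved by a like amount, 0.30 (exact permutation P = 0.1, adjusted 0.2), also with no overlap. The ratio of Nlgn2 to Nlgn3 differed by 0.00 between genotypes, with overlapping ranges (exact permutation P = 1). Per kb of exon, Nlgn2 made up 79.3% ± 0.237 of the neuroligin transcript level in WT and 78.3% ± 0.698 in Fmr1-KO neurons. The share of Nlgn1 was 5.78% ± 0.148 in WT and 7.00% ± 0.437 in Fmr1-KO neurons, each Fmr1-KO library being above each WT library.

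All 4 LRRTMs fell, and their decreases were the largest of the 9 members. Lrrtm1 stood at 42.0, 44.7 and 45.0 CPM in WT and at 30.9, 29.8 and 31.4 CPM in Fmr1-KO libraries. No Fmr1-KO library came near the lowest WT library. The mean of Lrrtm1 went from 43.9 ± 1.65 to 30.7 ± 0.829 CPM, a log2 fold-change of -0.52 (SE 0.05, edgeR adjusted P = 1.02e-08).

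Lrrtm2 stood at 37.8, 37.8 and 37.4 CPM in WT and at 26.2, 26.0 and 25.9 CPM in Fmr1-KO libraries. It had the tightest replicates of any member in both genotypes. The mean of Lrrtm2 went from 37.7 ± 0.229 to 26.0 ± 0.152 CPM, a log2 fold-change of -0.53 (SE 0.05, edgeR adjusted P = 5.62e-09). Lrrtm2 and its host gene Ctnna1 overlap in exons on opposite strands, and counting was strand-specific. Ctnna1, which encodes the broadly expressed alpha-catenin of adherens junctions, was higher in Fmr1-KO neurons, with a log2 fold-change of 0.20 (edgeR adjusted P = 2.06e-05).

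Lrrtm3 had the fewest reads of the members, and stood at 12.6, 11.2 and 13.0 CPM in WT and at 8.03, 6.24 and 6.70 CPM in Fmr1-KO libraries. These values rest on 371 to 439 reads in WT and 191 to 261 reads in Fmr1-KO libraries. The lowest WT library, replicate 2, was still above the highest Fmr1-KO library, replicate 1. The mean of Lrrtm3 went from 12.3 ± 0.929 to 6.99 ± 0.928 CPM, a log2 fold-change of -0.81 (SE 0.09, edgeR adjusted P = 3.44e-07). Only 3.28% of all tested genes had a lower log2 fold-change. With its lower counts Lrrtm3 also had the largest SE, and leaving out single libraries moved its log2 fold-change between -0.92 and -0.74.

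Lrrtm4, the other LRRTM that binds proteoglycans, stood at 17.9, 18.7 and 17.9 CPM in WT and at 10.7, 9.93 and 12.2 CPM in Fmr1-KO libraries. The WT libraries were close together, and Fmr1-KO replicate 3 was the highest of its genotype while still below all WT libraries. The mean of Lrrtm4 went from 18.2 ± 0.437 to 10.9 ± 1.15 CPM, a log2 fold-change of -0.73 (SE 0.07, edgeR adjusted P = 6.29e-08).

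Within the LRRTM family, the log2 ratios of Lrrtm1 and of Lrrtm2 to Lrrtm4 were higher in Fmr1-KO neurons by 0.22 and 0.20 with no overlap between genotypes (exact permutation P = 0.1 for each, adjusted 0.2). Their ratios to Lrrtm3 were higher by 0.30 and 0.28 but overlapped (exact permutation P = 0.2 for each). The ratios of Lrrtm1 to Lrrtm2 and of Lrrtm3 to Lrrtm4 differed by 0.02 and -0.08, with overlapping ranges (exact permutation P = 0.7 for each). With a minimum fold change of 1.2 built into the edgeR test, the 4 LRRTMs were called lower and the neurexins and neuroligins were not, where 7.89% of all tested genes were called lower.

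**Figure D2:**
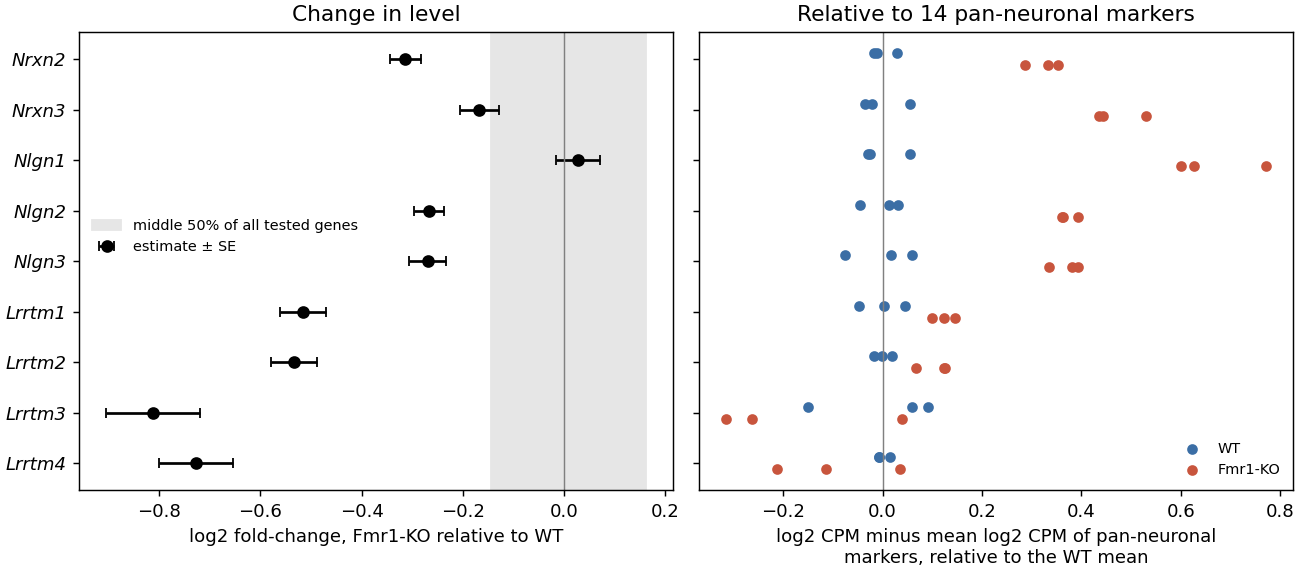
Left, log2 fold-change of each member, Fmr1-KO relative to WT, with its SE (x axis), over a grey band that holds the middle 50% of tested genes. Right, log2 CPM of each member minus the mean log2 CPM of 14 pan-neuronal markers in each library, set to 0 at the WT mean. Lrrtm3 and Lrrtm4 lie farthest left at -0.81 and -0.73, and relative to the pan-neuronal markers 7 members are above WT in every Fmr1-KO library, of which Nrxn2, Lrrtm1 and Lrrtm2 change sign against excitatory neuron markers.

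Levels can be compared between genes only per length, and RPKM (CPM per kb of merged exons) was used for this. In WT neurons the order was Nlgn2 at 52.0 ± 0.801 RPKM, Nrxn2 at 25.7 ± 0.489, Lrrtm1 at 14.5 ± 0.544, Nlgn3 at 9.75 ± 0.326 and Nrxn3 at 8.92 ± 0.230 RPKM. It continued with Lrrtm2 at 6.25 ± 0.0379, Nlgn1 at 3.78 ± 0.114, Lrrtm4 at 2.95 ± 0.0711 and Lrrtm3 at 2.89 ± 0.219 RPKM. The WT libraries of neighbours in this order did not overlap, except for Lrrtm4 and Lrrtm3. In Fmr1-KO neurons the order by mean was unchanged, Nlgn2 standing at 43.2 ± 0.762 RPKM and Lrrtm3 at 1.64 ± 0.218 RPKM, and Nlgn3 and Nrxn3 now overlapped as well as Lrrtm4 and Lrrtm3. The neurexin values depend most on the length used. Merged exons, which take in every annotated transcript, came to 13812 bases for Nrxn2 and 12605 for Nrxn3. The longest transcript had 6667 and 7922 bases in that order. With the longest transcript instead, Nrxn2 stood at 53.3 RPKM in WT, beside 54.0 RPKM for Nlgn2, and Nrxn3 at 14.2 RPKM.

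**Figure D3:**
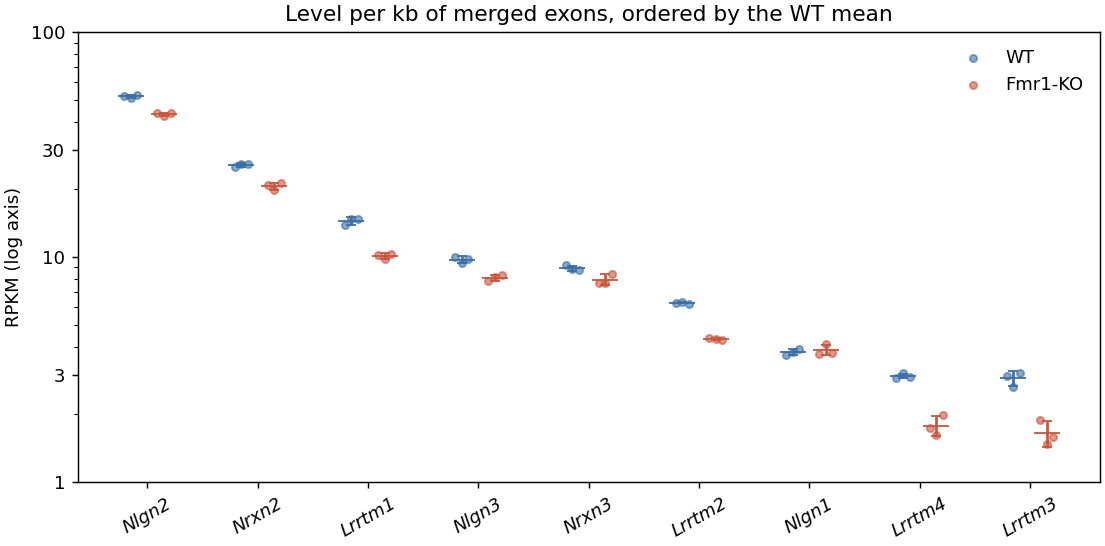
RPKM (y axis, log scale) of each member, ordered by its WT mean, in WT (blue) and Fmr1-KO (red) libraries, with 1 point per library and bars for the mean ± SD (n = 3). Levels in WT run from 52.0 RPKM for Nlgn2 to 2.89 RPKM for Lrrtm3, and the last 2 members overlap in both genotypes.

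Since these are synaptic genes in bulk cultures, their values were set beside markers of the cells the cultures could hold. Of the 14 pan-neuronal markers, 12 were lower in Fmr1-KO neurons, 1 was higher and 1 did not pass the test, with a median log2 fold-change of -0.64 and none at 0 in all libraries. Their summed level was 5944 to 6079 CPM in WT and 4937 to 5169 CPM in Fmr1-KO libraries. The neurofilament gene Nefl went from 31.0 ± 1.08 to 8.29 ± 0.143 CPM, whereas Dcx, a microtubule protein of immature neurons, was higher by 0.08 on the log2 scale (edgeR adjusted P = 0.0313). The call for Dcx was lost without WT replicate 1 (adjusted P = 0.0643), WT replicate 3 (0.133) or Fmr1-KO replicate 3 (0.168). All 10 proliferation markers were higher, summing to 546 to 584 CPM in WT and 936 to 991 CPM in Fmr1-KO libraries, and 5 of 10 neural progenitor markers were higher, the other 5 not passing the test. The part of these shifts in the members' values was not tested.

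Relative to the mean of the 14 pan-neuronal markers, 7 members were higher in Fmr1-KO neurons in every library, by 0.67 for Nlgn1, 0.47 for Nrxn3, 0.37 for Nlgn2 and for Nlgn3, 0.32 for Nrxn2, 0.12 for Lrrtm1 and 0.11 for Lrrtm2 on the log2 scale (exact permutation P = 0.1 for each, 0.129 after adjustment over 9 members). Lrrtm3 and Lrrtm4 differed by -0.18 and -0.10 with overlapping ranges (exact permutation P = 0.2 and 0.4). The direction depends on the reference: against the 9 excitatory neuron markers the differences were -0.03 for Nrxn2, -0.24 for Lrrtm1 and -0.25 for Lrrtm2, and against the median of the pan-neuronal markers they were 0.05 for Lrrtm3 and 0.13 for Lrrtm4. Those were the members that changed sign. Because a change of reference moves every member by the same amount, Nlgn2 and Nlgn3 differed little from WT against the excitatory neuron markers. The excitatory neuron markers themselves were divided, 4 lower and 5 higher. Slc17a7, the vesicular glutamate transporter of mature cortical neurons, was among the lower ones, at 20.2 ± 0.498 CPM in WT and 3.69 ± 0.0893 CPM in Fmr1-KO neurons. Its log2 fold-change of -2.45 was the lowest of the 9 and weighs on their mean. In the same way Nefl (-1.90) and Nefm (-1.35) weigh on the mean of the pan-neuronal markers, of which Dcx (0.08) was the highest. Differences against the pan-neuronal mean without Nefl and Nefm were not computed.

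All 8 oligodendrocyte lineage markers were lower, their sum going from 1884 to 2046 CPM in WT to 1075 to 1159 CPM in Fmr1-KO libraries, with a median log2 fold-change of -0.72, and none was at 0. Of 8 microglia markers 7 were lower and 1 did not pass, with a median of -0.74 and none at 0, their sum going from 173 to 191 CPM in WT to 100.3 to 113 CPM in Fmr1-KO libraries. The median of the 4 LRRTMs, -0.63, lay near those of the oligodendrocyte lineage, microglia and pan-neuronal markers. Among 10763 genes of at least 10 CPM, the 3 whose log2 CPM followed Lrrtm3 most closely over the 6 libraries were Olig2 (Euclidean distance 0.197), Tmtc1 (0.199) and Id1 (0.204). Olig2, a transcription factor of the oligodendrocyte lineage, had a log2 fold-change of -0.74, and Id1, an inhibitor of differentiation, one of -0.79. The distance takes in the difference between genotypes, so genes with a log2 fold-change near that of Lrrtm3, -0.81, come first. It does not show that these genes share a cell type with Lrrtm3. Whether oligodendrocyte lineage cells or microglia had a part in the LRRTM values was not tested.

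The partners of these proteins were then examined, from lists chosen with earlier results of these data known. Of 17 further neurexin ligands, 10 were lower, 1 was higher and 6 did not pass the test, with a median log2 fold-change of -0.26. Cbln2, a secreted bridge between neurexins and postsynaptic delta receptors, fell most among those of at least 5 CPM, from 21.8 ± 1.62 to 11.7 ± 0.587 CPM (log2 fold-change -0.90, edgeR adjusted P = 1.10e-09). The calsyntenin gene Clstn3 (-0.62), the neurexophilin gene Nxph1 (-0.60) and the latrophilin gene Adgrl1 (-0.26) also fell. Adgrl2, another latrophilin, was the ligand that rose, by 0.13 on the log2 scale (edgeR adjusted P = 0.00287).

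Of 32 other synaptic adhesion organizers, 24 were lower, 4 were higher and 4 did not pass, with a median log2 fold-change of -0.24. The decreases were led by the teneurin gene Tenm1, from 28.7 ± 0.906 to 12.9 ± 1.05 CPM (log2 fold-change -1.15, edgeR adjusted P = 6.37e-12). It was followed by the SALM genes Lrfn2 (-0.90) and Lrfn5 (-0.76) and by the netrin-G ligand gene Lrrc4c (-0.72). Ntng2, a netrin-G, went against this direction, from 26.2 ± 2.55 to 44.2 ± 1.45 CPM (log2 fold-change 0.75, edgeR adjusted P = 7.72e-10). Ptprs, a receptor tyrosine phosphatase of the presynaptic side, rose by 0.24, Flrt2 by 0.15 and Flrt3 by 0.14 on the log2 scale. The call for Flrt3 (edgeR adjusted P = 0.0140) was lost without WT replicate 2 (adjusted P = 0.0542) and without Fmr1-KO replicate 1 (adjusted P = 0.0524).

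Of 13 intracellular partners, 10 were lower and 3 did not pass, with a median log2 fold-change of -0.29. Apba1 (Mint1), a presynaptic adaptor that joins neurexins to the release machinery, went from 141 ± 1.22 to 72.5 ± 1.505 CPM (log2 fold-change -0.96, edgeR adjusted P = 4.84e-15). Its paralogue Apba2 had a log2 fold-change of 0.03 and did not pass (edgeR adjusted P = 0.382). The postsynaptic scaffold genes Dlg2 (-0.65), Dlg3 (-0.39) and Dlg4 (-0.36) fell. These 3 lists had medians close to those of the neurexins and neuroligins.

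Khdrbs1, Khdrbs2 and Khdrbs3 encode the STAR proteins that regulate alternative splicing of neurexin mRNAs. Khdrbs2 fell from 15.5 ± 0.125 to 9.98 ± 1.52 CPM (log2 fold-change -0.63, edgeR adjusted P = 3.30e-06). Khdrbs1, with the most reads of them, rose from 289 ± 3.70 to 306 ± 6.49 CPM (log2 fold-change 0.08, edgeR adjusted P = 0.0242). The call for Khdrbs1 was lost without WT replicate 1 or 2, or without Fmr1-KO replicate 1 or 3, with adjusted P from 0.0514 to 0.121. Khdrbs3 stood at 147 ± 5.00 CPM in WT and 147 ± 5.55 CPM in Fmr1-KO neurons (edgeR adjusted P = 0.931). Gene-level counts do not show which neurexin splice forms were made, and isoforms were not analysed here.

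**Figure D4:**
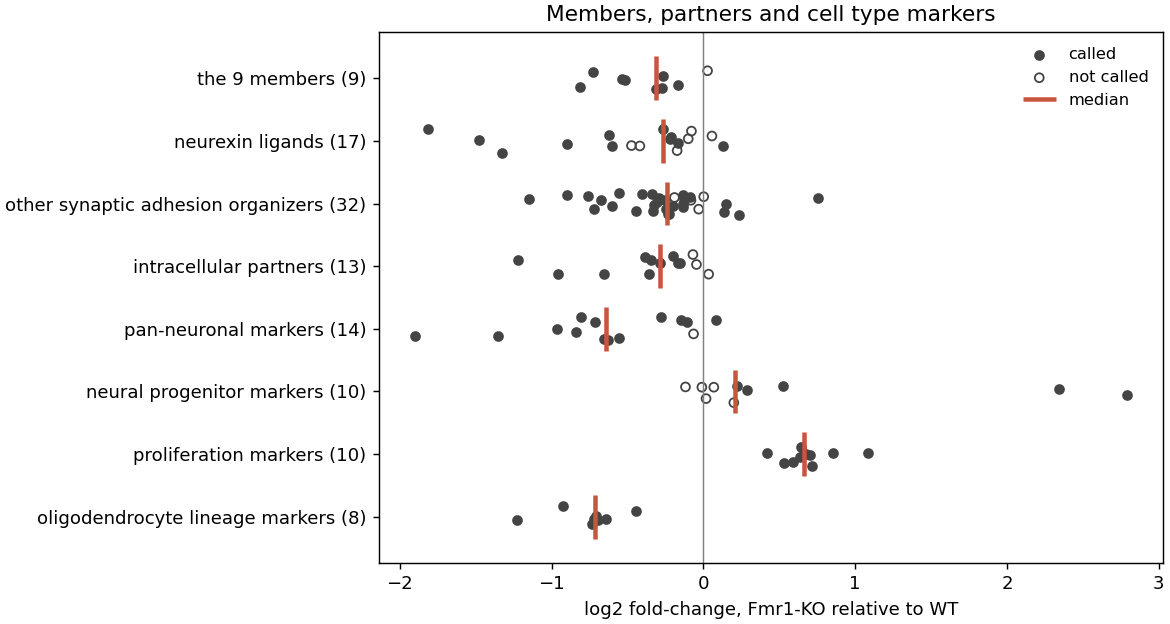
Log2 fold-change, Fmr1-KO relative to WT (x axis), of the 9 members and of the genes in 7 lists (rows, with the number tested); filled points passed the edgeR test, open points did not, and red bars mark medians. The members' median of -0.31 lies near those of the partner lists, with pan-neuronal and oligodendrocyte lineage markers farther left at -0.64 and -0.72 and proliferation markers at 0.66.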

How the data were processed

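The authors deposited 1 table of raw read counts per gene name, without normalization. According to the methods, dissociated cortical cells were depleted of ACSA2+ astrocytes and myelin before plating. Stranded single-end libraries were trimmed (FastP), aligned to GRCm38.p6 (STAR 2.7.6a per the labels) and counted over exons on the reverse strand (featureCounts, Subread 2.0.1 per the labels). Counts by gene name do not separate isoforms, nor reads that fit a near-identical copy equally well.

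Genotypes were compared with the quasi-likelihood test of edgeR 4.0.16 in R 4.3.3 (genes kept by filterByExpr, TMM scaling, 2-sided, no other term, Benjamini-Hochberg over all tested genes, threshold 0.05). CPM are TMM-scaled, and RPKM divides them by merged exon length (GENCODE M21). Log2 ratios within a family used a pseudocount of 0.5 reads and exact permutation tests, with Benjamini-Hochberg adjustment in scipy 1.17.1. The edgeR test was also run on simulated counts with few changed genes and the same dispersion for every gene. That setting is simpler than these data, so it does not check the calls made here. Alternatives were DESeq2 1.42.0, RLE and upper-quartile normalization, library totals, no low-count filter, a filter at a mean of 10 counts and 5 CPM, removal of the 20 most abundant genes, a replicate block, a minimum fold change of 1.2 and leaving out each library. For ratios they were a pseudocount of 5 and other reference markers.

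The members and lists were chosen with earlier results of these data known. Named were all members, Fmr1, the splicing regulators and alpha-catenin hosts, up to 4 called partners per list and direction (a mean of at least 5 CPM, no overlap between genotypes), and the 3 genes most like the called member with the largest change. Apba2 and the marker genes given as examples were chosen after their values were seen. Of the 9 members, 6 had a promoter in the RefSeq table.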

Additional observations from a re-analysis of the deposited data

How the results depend on the processing

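The number of members called lower stayed at 8 and the number called higher at 0 under every alternative except a minimum fold change of 1.2, which called 4 lower (the LRRTMs). Leaving out single libraries gave 8 to 8 members called lower. With a replicate block 8 members were called lower, and 3694 lower and 3488 higher over all genes, against 3725 and 3506 without it. The labels do not say whether same-numbered WT and Fmr1-KO libraries belong together. Their deviations correlated at -0.15, 0.11 and 0.05, and so few values cannot exclude a shared batch. No pairing was used in the main test. Library totals alone called 3212 genes lower and 4207 higher, and a minimum fold change called 1340 and 883, whereas the median of all genes moved by less than 0.1 under each scaling. Of 135 alternative values of the members' log2 fold-changes, 130 kept direction and call, 4 lost the call (at the minimum fold change) and 1 reversed, Nlgn1 at -0.016 without Fmr1-KO replicate 2, with a range from -0.016 to 0.051 over single libraries left out. Khdrbs3, near 0, was at 0.0058 under upper-quartile scaling and at 0.023 under library totals, and ranged from -0.031 to 0.023 when single libraries were left out.

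Among within-family ratios, leaving out single libraries gave differences from -0.025 to 0.020 for Nlgn2 to Nlgn3 (below 0 without replicate 1 of either genotype) and from -0.017 to 0.039 for Lrrtm1 to Lrrtm2 (below 0 without WT replicate 1 or Fmr1-KO replicate 3). For Lrrtm3 to Lrrtm4 the range was -0.20 to 0.025, above 0 without Fmr1-KO replicate 3. Against excitatory neuron markers Nrxn2 was at -0.034, Lrrtm1 at -0.24 and Lrrtm2 at -0.25, and against the median of the pan-neuronal markers Lrrtm3 was at 0.052 and Lrrtm4 at 0.13. The astrocyte median became 0.028 without the 20 most abundant genes. The endothelial and mural median became -0.18 with DESeq2 and with no filter and -0.14 without WT replicate 2, and ranged from -0.14 to 0.53 when single libraries were left out. With the stricter filter the medians were -0.19 for neurexin ligands, -0.24 for intracellular partners, -1.01 for microglia and 0.47 for endothelial and mural markers. Without Fmr1-KO replicate 3 they were -0.13 for GABAergic and 0.16 for neural progenitor markers. The filters and the removal of abundant genes also change which genes of a list are counted. P2ry12 (mean 1.38 CPM) and Tmem119 (3.77 CPM) of the microglia list lie below the stricter filter. So do Pecam1 (0.906 CPM) and Cdh5 (2.07 CPM) of the endothelial and mural list. The cause of the other changes was not tested. Depth limits Lrrtm3 most, at 191 to 439 reads a library.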

Other observations

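Of the alpha-catenin genes that host LRRTMs on the opposite strand, Ctnna2, the neuronal form, went from 211 ± 5.35 to 228 ± 3.57 CPM (log2 fold-change 0.11, edgeR adjusted P = 0.00462), while Lrrtm1 inside it fell. Ctnna3, host of Lrrtm3, had 6 to 18 counts per library, too few to place beside Lrrtm3 (edgeR adjusted P = 0.185). Gm14964, an antisense RNA inside Nrxn2, had a log2 fold-change of 0.34 (edgeR adjusted P = 0.00271), with 226 to 256 counts in WT and 279 to 338 in Fmr1-KO libraries, whereas Nrxn2 fell. Gm21986, which shares exons with Nlgn3 on the same strand, had 15 to 28 counts per library, beside 2302 to 3238 counts of Nlgn3. These counts do not show how many reads fell in the shared exons.

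Among the other marker lists, 5 of 10 GABAergic neuron markers were lower and 4 higher (median log2 fold-change -0.05). Sst, a neuropeptide of interneurons, had the largest decrease of that list, from 43.6 ± 3.04 to 7.53 ± 0.612 CPM. Dlx2 had its largest increase, from 84.4 ± 2.44 to 127 ± 8.47 CPM. Of 8 astrocyte markers 4 were lower and 2 higher (median -0.05). Of 7 endothelial and mural markers 5 were tested, 2 lower and 2 higher (median 0.35).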
